A study of Mus musculus with 6 samples.

Results

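The genes of glycolysis, with those that carry glucose into the cell and lactate out of it, were followed in C2C12 cells after transfection with an siRNA against Cox7a2l (siCOX7A2L) or with a random control siRNA (siCTRL). The 32 genes were listed by their role, with earlier results of these data known. All 32 were found, in 33 of the 52740 gene rows, because Aldoa has a second row. They comprise 3 glucose transporters, 11 enzymes of the upper steps, 5 enzymes that set the activator of phosphofructokinase, 8 enzymes of the lower steps and 5 genes of lactate. C2C12 is a mouse myoblast line that can fuse into myotubes, and the cells of all 6 libraries were kept in DMEM with 10% fetal bovine serum, transfected with RNAiMAX and sequenced as ribosomal RNA-depleted total RNA on a NovaSeq instrument. Each group held 3 libraries numbered 1 to 3, and the single comparison is siCOX7A2L against siCTRL. Cox7a2l encodes a mitochondrial protein that helps assemble respiratory supercomplexes, and the labels name no other allele or agent in either group. The series' title places the question in the differentiation of myoblasts.

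Glycolysis splits glucose into pyruvate in the cytosol. The upper enzymes spend ATP to phosphorylate and cleave the sugar, with hexokinase and phosphofructokinase as the main control points, and the lower enzymes recover ATP and NADH. Lactate dehydrogenase returns the NADH to NAD+ by reducing pyruvate, and monocarboxylate transporters move the lactate across the membrane. Proliferating myoblasts draw on this route, and differentiating muscle switches on its own isoforms, among them the insulin-responsive transporter Slc2a4, the phosphofructokinase Pfkm, the mutase Pgam2 and the enolase Eno3. Many of the genes are known targets of hypoxia-inducible factor and of Myc.

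The promoter windows of the 3 genes with the smallest p-values among the 29 tested are shown. All 3 windows hold letters of known hypoxia response elements, and only that of Ldha holds the E-box of Myc. They come from RefSeq's annotation of GRCm38.p6, run from 250 bases before to 50 bases from the transcript start, and are written 5′ to 3′ on the gene's strand. Capitals mark ACGTG or GCGTG on either strand, the letters at the centre of known hypoxia response elements, and in Ldha also the palindrome CACGTG, the E-box of Myc, in which ACGTG lies on both strands. Pgk1 is at chrX:106186850-106187149 on the plus strand, Ldha, in the first of 2 windows, at chr7:46845554-46845853 on the plus strand and Hk2 at chr6:82774405-82774704 on the minus strand.
Pgk1: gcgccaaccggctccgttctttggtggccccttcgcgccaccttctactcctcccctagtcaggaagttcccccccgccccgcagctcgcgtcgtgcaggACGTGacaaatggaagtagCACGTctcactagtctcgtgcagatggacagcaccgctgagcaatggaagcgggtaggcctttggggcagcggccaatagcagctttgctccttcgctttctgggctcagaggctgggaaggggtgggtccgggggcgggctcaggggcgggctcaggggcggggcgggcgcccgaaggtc
Ldha: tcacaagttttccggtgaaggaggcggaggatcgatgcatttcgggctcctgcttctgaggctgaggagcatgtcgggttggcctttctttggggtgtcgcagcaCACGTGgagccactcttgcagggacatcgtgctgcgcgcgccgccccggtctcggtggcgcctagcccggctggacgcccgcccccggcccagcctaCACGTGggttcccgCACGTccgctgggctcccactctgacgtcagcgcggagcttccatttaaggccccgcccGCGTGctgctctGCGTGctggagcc
Hk2: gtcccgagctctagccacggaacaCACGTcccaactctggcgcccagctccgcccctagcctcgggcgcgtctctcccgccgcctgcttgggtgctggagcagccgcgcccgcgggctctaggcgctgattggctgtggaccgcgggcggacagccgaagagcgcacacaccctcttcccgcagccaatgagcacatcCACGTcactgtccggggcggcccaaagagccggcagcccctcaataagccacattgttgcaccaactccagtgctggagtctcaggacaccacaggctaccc
Counted from 1 at the window's 5′ end, ACGTG starts at 101 and 120 in Pgk1 and at 25 and 199 in Hk2. In Ldha, ACGTG starts at 106, 107, 203, 204 and 217 and GCGTG at 276 and 288. RefSeq windows matched 29 of the 32 genes. On both strands, ACGTG or GCGTG was found for 24 of these 29 genes (82.8%), against 46.7% of the 27025 genes with a window. CACGTG was found for 5 of the 29 (17.2%), against 8.1% of all, CCGCCC, the core of the GC box, for 22 (75.9%) against 38.2%, and TATAAA for 4 (13.8%) against 15.7%. A gene counted if any of its windows matched, and the 29 genes had 46 windows, against 32851 for the 27025 genes. Per window, ACGTG or GCGTG was in 73.9% of the members' windows, against 43.8% of all, and CACGTG in 10.9%, against 7.15%. CCGCCC was in 54.3%, against 35.7%, and TATAAA in 8.70%, against 13.6%. These are letter matches, and no binding was measured.

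The libraries held 9890218 to 15095348 estimated counts in siCOX7A2L and 14310241 to 17077826 in siCTRL, and the 32 genes took 0.859% to 1.18% of the counts in siCOX7A2L and 1.01% to 1.29% in siCTRL. Cox7a2l was at 6.72, 5.90 and 3.59 CPM (counts scaled to depth with TMM factors) in siCOX7A2L and at 58.0, 59.5 and 59.0 CPM in siCTRL, a log2 fold change of -3.44 (SE 0.19, edgeR adjusted p 1.9e-05), lower in each siCOX7A2L library as labelled. Libraries of replicate 3 stood apart in both groups. The 5 myoblast markers summed to 1300 to 2962 CPM in siCOX7A2L and 1413 to 1962 CPM in siCTRL, while the 4 endothelial markers were below 1 CPM in every library. The 7 markers of differentiating muscle summed to 29.2, 8.29 and 405 CPM in siCOX7A2L and 10.5, 10.9 and 155 CPM in siCTRL, and the 5 cycling markers to 1123, 1078 and 767 CPM in siCOX7A2L and 1573, 1572 and 1879 CPM in siCTRL. The cycling sum was thus lower in each siCOX7A2L library, and the differentiation sum was highest in replicate 3 of both groups and lower in siCOX7A2L only in pair 2. By edgeR, 2 of 6 tested differentiation markers rose (Tnnt1 and Actc1, log2 fold changes 2.03 and 1.55, adjusted p 0.00226 and 0.0263; list median 1.02) and 1 of 5 cycling markers fell (Rrm2, -0.95, adjusted p 0.0231). Of the 5 fibroblast markers, which summed to 224, 357 and 839 CPM in siCOX7A2L and 291, 295 and 775 CPM in siCTRL, 2 were below 1 CPM in every library, 3 were tested and Dcn rose (log2 fold change 1.72, edgeR adjusted p 0.0419). In every library, 3 of 4 adipocyte, 3 of 4 immune and 3 of 4 epithelial markers were below 1 CPM. The part of these markers in the results below was not tested. In bulk RNA, fewer cells of a kind and less RNA per cell cannot be told apart. The labels do not say whether the 3 libraries of a group came from separate cultures, so the spread behind each p-value may be technical.

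Of the 32 genes, 29 passed the expression filter and were tested. At an adjusted p under 0.05, edgeR's quasi-likelihood test with the replicate number as block called 0 of the 29. It called 0.726% of the 15022 genes tested (65 higher and 44 lower), and 29 genes are too few for 0 calls to stand out from that share. At an unadjusted p under 0.05, 7 of the 29 were lower in siCOX7A2L (Hk2, Pgm1, Pgk1, Eno2, Eno3, Ldha and Slc16a3) and 0 higher, against 8.97% lower and 8.74% higher among all genes. The fold change was below 0 for 19 of the 29, against 48.9% of all genes, and its median was -0.09 on the log2 scale, against 0.01 over all genes. In the single pairs of equal replicate number the median over the 29 was -0.16, -0.11 and -0.11. In their own gene rows, 12 of the 29 genes were lower in all 3 pairs, against 20.8% of all genes. Higher in all 3 were 4, against 21.2%. In the authors' deposited table, 28 of the genes have an adjusted p and 2 were under 0.05, Pgk1 and Ldha, both lower, against 6.34% of all its genes in either direction and 3.45% in the lower direction. DESeq2 with the replicate block called 1 of the 27 with an adjusted p, Pgk1, against 4.01% of all 12224 genes with one. It put 6 of the 32 at an unadjusted p under 0.05, against 1975 of all 26739 genes fitted.

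**Figure D1:**
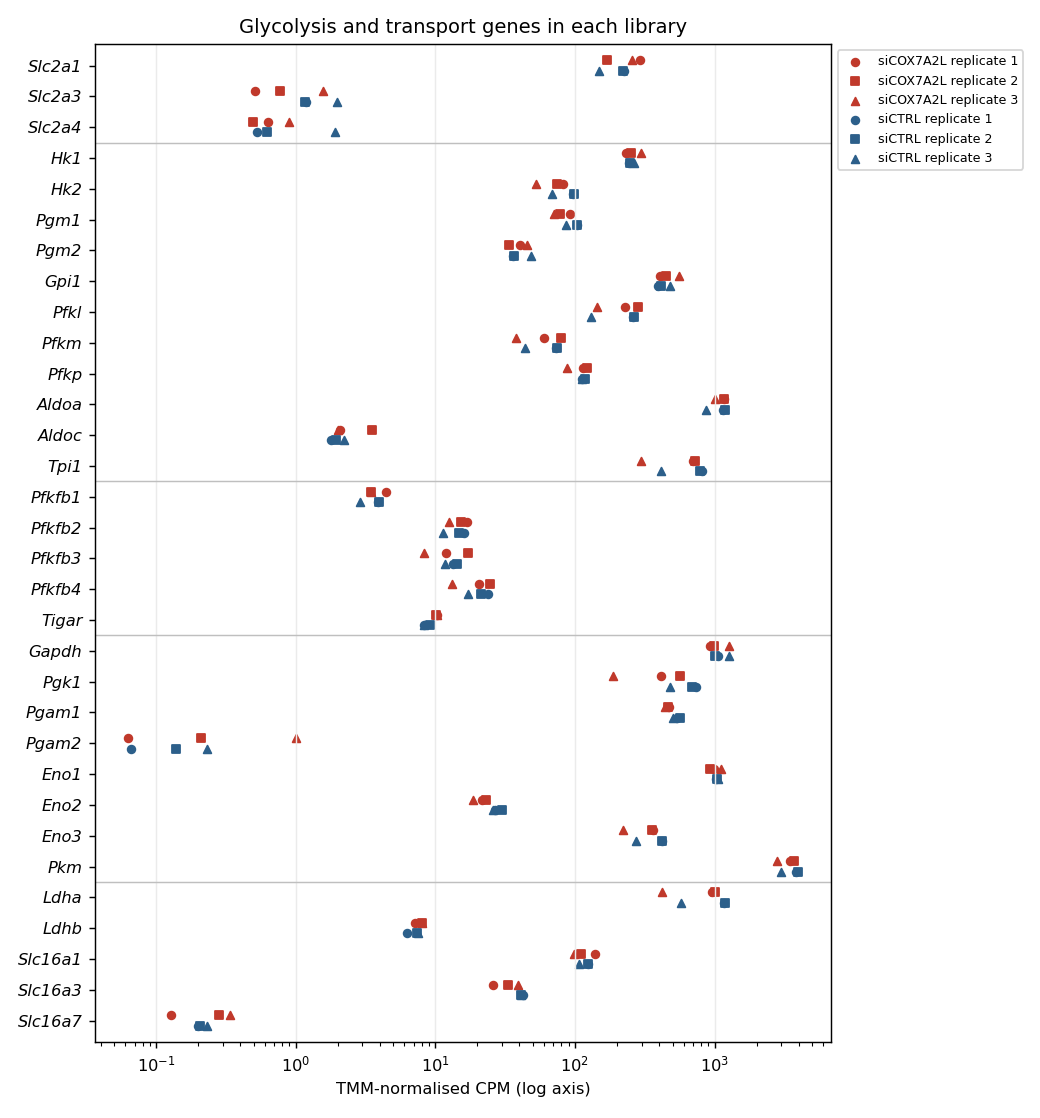
TMM-scaled CPM on a log axis of the 32 genes in each of the 6 libraries, siCOX7A2L in red above siCTRL in blue, with the replicate given by the marker and grey lines between transport, upper enzymes, control of phosphofructokinase, lower enzymes and lactate. Pgk1 lies at 188 to 565 CPM in siCOX7A2L and 477 to 736 CPM in siCTRL, while Pgam2 and Slc16a7 stay at or below 1.01 CPM.

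Among the 3 listed glucose transporters, Slc2a1, the basal transporter GLUT1, had by far the highest level. Slc2a1 had 294, 170 and 258 CPM in siCOX7A2L, against 223, 220 and 148 CPM in siCTRL. The groups overlapped, since siCOX7A2L replicate 2 lay below 2 of the siCTRL libraries. Its log2 fold change was 0.27 (SE 0.20, edgeR adjusted p 0.526), with 0.40, -0.38 and 0.80 in the 3 pairs. The value depended on replicate 2 and on the unit: without replicate 2 it was 0.59 with an edgeR adjusted p of 0.019, over alternatives that ran up to 0.99, and on log2 TPM it was -0.02. The median over all genes on log2 TPM was itself -0.21. Slc2a3, the high-affinity transporter GLUT3, had 0.507, 0.772 and 1.57 CPM in siCOX7A2L and 1.19, 1.17 and 1.97 CPM in siCTRL. Each siCOX7A2L library was below the siCTRL library of its number, the groups overlapped, and the log2 fold change was -0.68 (SE 0.41, edgeR adjusted p 0.431), which turned to 0.24 on log2 TPM.

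The upper enzymes, from hexokinase to triose phosphate isomerase, were near balance, with 6 of 11 log2 fold changes below 0, 5 above and a median of -0.01. Aldoa, the aldolase with the highest level per length among them (671 TPM on average), had 1164, 1165 and 1015 CPM in siCOX7A2L and 1149, 1197 and 872 CPM in siCTRL. Its groups overlapped, and its log2 fold change was 0.07 (SE 0.12, edgeR adjusted p 0.827). Hk2 (ENSMUSG00000000628.11), the inducible hexokinase that binds mitochondria, had 81.5, 73.9 and 52.2 CPM in siCOX7A2L, against 96.2, 99.2 and 69.0 CPM in siCTRL. Every siCOX7A2L library was below its siCTRL partner, although siCTRL replicate 3 was below 2 of the siCOX7A2L libraries. The mean was 69.2 ± 15.2 CPM in siCOX7A2L and 88.1 ± 16.7 CPM in siCTRL (SD, n = 3 each), with a log2 fold change of -0.35 (SE 0.12, edgeR adjusted p 0.171). The authors' deposited table gives it an adjusted p of 0.0502. Hk1, the constitutive hexokinase, had a log2 fold change of 0.04, with 261 ± 33.8 CPM in siCOX7A2L and 252 ± 9.96 CPM in siCTRL (SD, n = 3 each). Pgm1, a phosphoglucomutase that links glycogen to glycolysis, and Tpi1, triose phosphate isomerase, were also lower in all 3 pairs, by log2 fold changes of -0.29 and -0.27 (edgeR adjusted p 0.251 and 0.292). Gpi1, the isomerase after hexokinase, was higher in all 3 pairs, at 0.13 (edgeR adjusted p 0.620). The log2 fold changes of Pgm2, Pfkl, Pfkm and Pfkp lay between -0.14 and 0.02. Aldoc, the brain aldolase, had 2.09, 3.51 and 2.02 CPM in siCOX7A2L and 1.78, 1.93 and 2.20 CPM in siCTRL. Its log2 fold change of 0.34 (edgeR adjusted p 0.635) rested on siCOX7A2L replicate 2, the one library above 3 CPM.

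The enzymes that make or remove the fructose bisphosphate activating phosphofructokinase showed no common direction, with a median log2 fold change of 0.08 over 5 genes. Tigar, a phosphatase that lowers this activator, had 10.2, 10.1 and 10.3 CPM in siCOX7A2L, against 8.32, 9.08 and 8.35 CPM in siCTRL. Its groups did not overlap, and it was the one gene of the 29 entirely higher in siCOX7A2L, against 7.96% of all genes. Its log2 fold change was 0.25 (SE 0.18, edgeR adjusted p 0.516), and on log2 TPM it was -0.12, where the median over all genes was -0.21. Pfkfb4, the bifunctional kinase and phosphatase with the highest TPM of its family, had 20.5, 24.8 and 13.1 CPM in siCOX7A2L and 23.6, 21.1 and 17.1 CPM in siCTRL, a log2 fold change of -0.11 (SE 0.17, edgeR adjusted p 0.786). Pfkfb1, Pfkfb2 and Pfkfb3 had log2 fold changes of 0.08, 0.08 and -0.11.

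All 7 tested enzymes of the lower steps had log2 fold changes below 0, with a median of -0.23, though none passed the test. In their own rows, 6 of them were lower in all 3 pairs (Gapdh by less than 0.01 in pair 3). With its near-identical copies, described below, Gapdh was higher in siCOX7A2L in pair 3, at 3106 CPM against 3040 CPM. The median over the 7 was -0.20, -0.25 and -0.19 in the 3 pairs, and it stayed below 0 under each scaling tried, at -0.27 with library size alone and -0.49 on log2 TPM, where the median over all genes was itself -0.21. Pgk1 (ENSMUSG00000062070.13), phosphoglycerate kinase, an enzyme that makes ATP, had 412, 565 and 188 CPM in siCOX7A2L, against 736, 693 and 477 CPM in siCTRL. Each siCOX7A2L library was below its siCTRL partner, but siCOX7A2L replicate 2 was above siCTRL replicate 3, so the groups overlapped. Its mean was 388 ± 190 CPM in siCOX7A2L and 635 ± 139 CPM in siCTRL (SD, n = 3 each), a log2 fold change of -0.82 (SE 0.18, a fold of 0.565), with -0.84, -0.29 and -1.34 in the pairs. The edgeR adjusted p was 0.0675 and missed the threshold. The call was made under 5 alternatives and not under 8 others, with adjusted p from 1.18e-07 without an expression filter to 0.822 without the block. The 5 were no expression filter, a minimum of 10 counts in every library, DESeq2, and the fits without replicate 1 and without replicate 2, which called 4.7%, 1.58%, 4.01%, 2.45% and 7.87% of all genes. The 8 others called 0.0133% of all genes without the block, 1.31% with a term for replicate 3, 0.726% with RLE factors, 0.386% with library size alone, 0.0932% and 0.0732% on log2 TPM with 0.5 and 1 added, 0.339% without replicate 3 and 0.727% with near-identical copies summed. Leaving out replicate 1 gave a log2 fold change of -0.82 (edgeR adjusted p 0.00824), leaving out replicate 2 gave -1.10 (6.63e-07), and leaving out replicate 3 gave -0.57 (0.144). The authors' deposited table gives -0.82 with an adjusted p of 0.000938.

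Gapdh, the dehydrogenase often used as a reference transcript and the highest of the 32 per length (1679 TPM on average), had 928, 987 and 1270 CPM in siCOX7A2L and 1050, 1013 and 1270 CPM in siCTRL. Its groups overlapped, with a log2 fold change of -0.07 (SE 0.12, edgeR adjusted p 0.804). In their own rows, Pgam1, the mutase of non-muscle cells, and Eno2, the neuronal enolase, were lower in siCOX7A2L with no overlap. The Pgam1 groups overlapped once its near-identical copies, described below, were added. Pgam1 had 472, 466 and 438 CPM in siCOX7A2L, against 542, 567 and 501 CPM in siCTRL, a log2 fold change of -0.23 (SE 0.11, edgeR adjusted p 0.337). Eno2 had 21.7, 23.2 and 18.8 CPM in siCOX7A2L, against 26.5, 30.0 and 25.7 CPM in siCTRL, a log2 fold change of -0.37 (SE 0.15, edgeR adjusted p 0.220). With Slc16a3, described next, 3 of the 29 genes were lower without overlap in their own rows, against 7.62% of all genes. Eno1, the general enolase, and Pkm, pyruvate kinase, had log2 fold changes of -0.06 and -0.10.

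**Figure D2:**
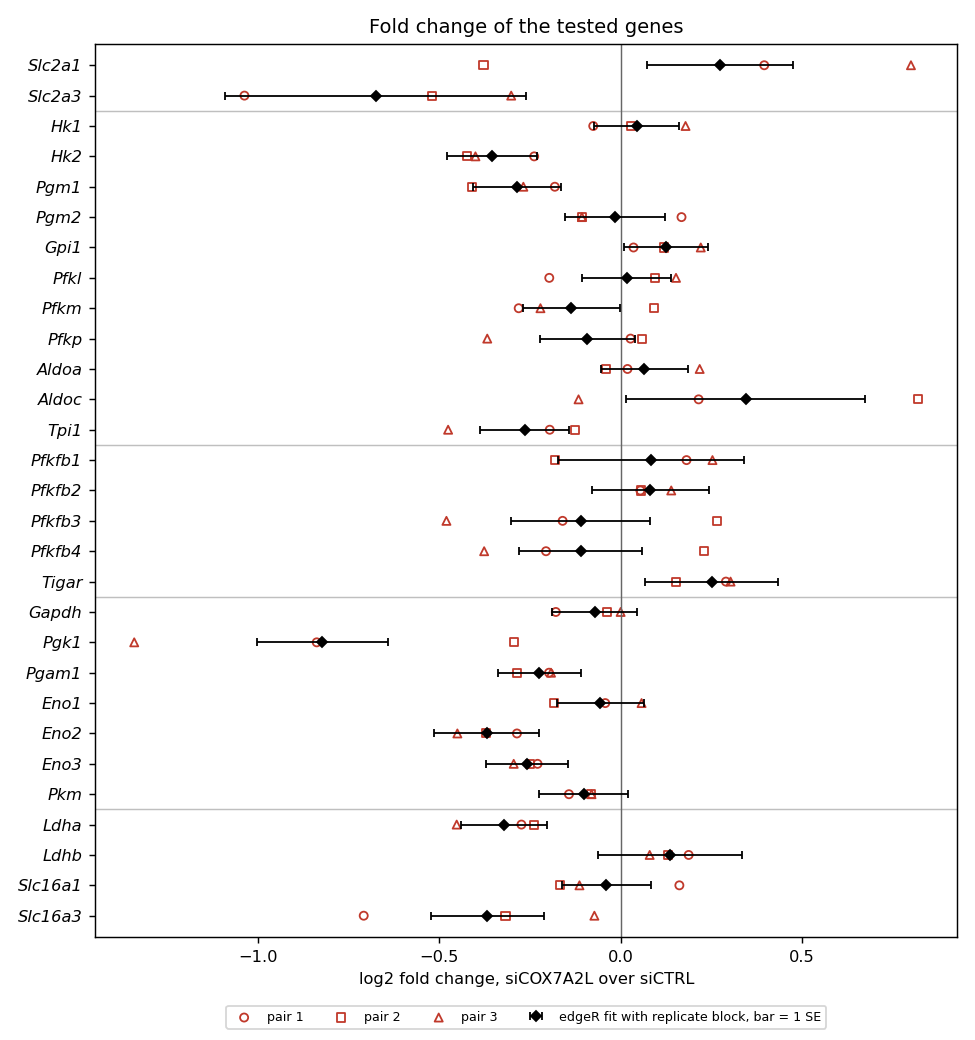
Log2 fold change of siCOX7A2L over siCTRL for the 29 tested genes, with the edgeR estimate and 1 SE in black and the 3 single pairs as open markers; grey lines divide the role groups. All 7 lower enzymes, Gapdh to Pkm, lie below 0, and Pgk1 at -0.82 is farthest from it.

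Lactate genes were led by Ldha (ENSMUSG00000063229.16), the lactate dehydrogenase subunit of glycolytic tissue, with 505 TPM on average. Ldha had 961, 1011 and 421 CPM in siCOX7A2L, against 1161, 1194 and 576 CPM in siCTRL. Both replicate 3 libraries were far below the others of their group, and within each pair siCOX7A2L was lower. The mean was 798 ± 327 CPM in siCOX7A2L and 977 ± 348 CPM in siCTRL (SD, n = 3 each), a log2 fold change of -0.32 (SE 0.12, edgeR adjusted p 0.194), with -0.27, -0.24 and -0.45 in the pairs. The authors' deposited table gives -0.33 with an adjusted p of 0.0361. Slc16a3, the lactate exporter MCT4, had 25.8, 32.9 and 38.9 CPM in siCOX7A2L, against 42.3, 41.1 and 40.9 CPM in siCTRL. The groups did not overlap, and the siCOX7A2L libraries were spread widely while the siCTRL libraries lay close together. Its log2 fold change was -0.37 (SE 0.16, edgeR adjusted p 0.250), with -0.71, -0.32 and -0.07 in the pairs, and it was -0.20 without replicate 1. Slc16a1, the transporter MCT1, had a log2 fold change of -0.04 and Ldhb, the heart-type subunit, of 0.14 (edgeR adjusted p 0.903 and 0.773). Summed over the 5 genes, lactate transcripts came to 1132, 1163 and 567 CPM in siCOX7A2L and 1334, 1367 and 732 CPM in siCTRL.

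The muscle isoforms were split between 2 that were well expressed and 2 that were barely detected. Pfkm had 60.3, 78.9 and 37.6 CPM in siCOX7A2L and 73.3, 74.0 and 43.9 CPM in siCTRL, a log2 fold change of -0.14 (SE 0.13, edgeR adjusted p 0.646). Eno3 had 360, 354 and 221 CPM in siCOX7A2L, against 422, 421 and 272 CPM in siCTRL, a log2 fold change of -0.26 (SE 0.11, edgeR adjusted p 0.269). Eno3 was lower in each pair, and both Pfkm and Eno3 were lowest in replicate 3, where the sum of the differentiation markers was highest. Slc2a4 had 0.634, 0.491 and 0.898 CPM in siCOX7A2L and 0.528, 0.619 and 1.91 CPM in siCTRL, and Pgam2 had 0.0634, 0.211 and 1.01 CPM in siCOX7A2L and 0.0660, 0.138 and 0.232 CPM in siCTRL. Neither passed the expression filter, nor did Slc16a7, the transporter MCT2, which was at 0.337 CPM or less. At these low counts the main test did not cover these 3 genes, which entered only fits with other filters or fewer libraries.

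Isoform usage was compared as each gene's share of its family's TPM, which does not depend on the TPM total. With the deposited gene rows, none of 20 shares reached 0.1, the smallest p that an exact permutation test of 3 against 3 libraries can give. Hk2 made up 19.7%, 16.6% and 11.0% of hexokinase TPM in siCOX7A2L and 21.3%, 21.9% and 16.0% in siCTRL (exact permutation p 0.3, two-sided). The Hk2 share was thus lower in siCOX7A2L in each of the 3 pairs, which the test, run over all 6 libraries without the replicate number, did not take into account. The liver isoform Pfkl held 53.3% ± 3.61 of phosphofructokinase in siCOX7A2L and 53.0% ± 4.63 in siCTRL, Pfkm 16.4% ± 1.76 in siCOX7A2L and 16.7% ± 1.69 in siCTRL, and the platelet isoform Pfkp 30.3% ± 2.06 in siCOX7A2L and 30.3% ± 6.30 in siCTRL (SD, n = 3 each). Eno3 held 28.2% ± 7.18 of enolase in siCOX7A2L and 30.7% ± 5.04 in siCTRL (SD, n = 3 each). Slc16a1 took 67.1%, 53.9% and 51.3% of the monocarboxylate transporters in siCOX7A2L, against 48.6%, 52.1% and 51.8% in siCTRL (exact permutation p 0.3, two-sided), with only siCOX7A2L replicate 1 above the rest by a wide margin. Pfkfb4 held 38.4% ± 0.963 of the PFKFB family in siCOX7A2L and 39.9% ± 3.65 in siCTRL (SD, n = 3 each). Single isoforms held nearly all of the TPM so counted in 4 families. Ldha held 98.6% ± 0.74 in siCOX7A2L and 99.0% ± 0.485 in siCTRL (SD, n = 3 each). Slc2a1 held 98.3% ± 0.779 in siCOX7A2L and 98.6% ± 1.27 in siCTRL (SD, n = 3 each). Aldoa and Pgam1 held over 99% in each library. The glucose transporters so counted were Slc2a1, Slc2a3 and Slc2a4 only. Slc2a8, a transporter outside the count, averaged 5.59 TPM over all libraries, against 58.4 TPM for Slc2a1.

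**Figure D3:**
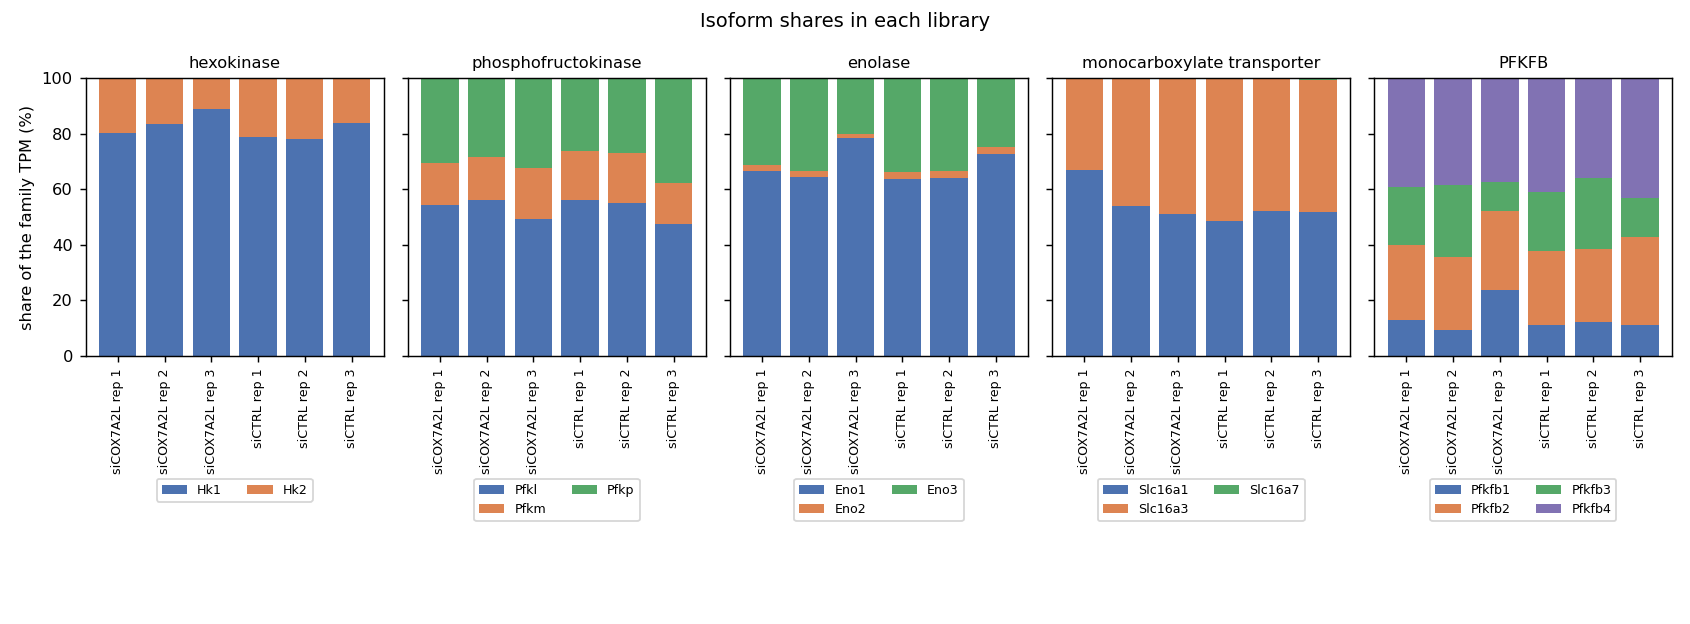
Share of each isoform in its family's summed TPM, in percent, for 5 families in the 3 siCOX7A2L libraries (left) and the 3 siCTRL libraries (right) of each panel. Within the hexokinases, Hk2 is smallest in siCOX7A2L replicate 3 (11.0%), and within the enolases Eno3 is smallest in replicate 3 of both groups.

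Replicate 3 and the near-identical copies of these genes bear on the values above. In both groups replicate 3 was below the mean log2 CPM of replicates 1 and 2 for 18 of the 29 genes, against 37.3% of all genes. The median difference over the 29 was -0.25 in siCOX7A2L and -0.23 in siCTRL on the log2 scale (0.5 CPM added). The difference was -1.26 in siCOX7A2L and -0.94 in siCTRL for Tpi1, -1.23 and -1.03 for Ldha, and -0.80 and -1.01 for Pfkl. The own row of Gapdh was above at 0.41 and 0.30, but with its copies added, described below, Gapdh was lower in replicate 3 too. For Pgk1 the difference was -1.36 in siCOX7A2L and -0.58 in siCTRL, and for Slc2a1 it was 0.21 in siCOX7A2L and -0.58 in siCTRL. Replicate 3 was low in both groups for most of the genes described above, and for Slc2a1 in siCTRL only.

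**Figure D4:**
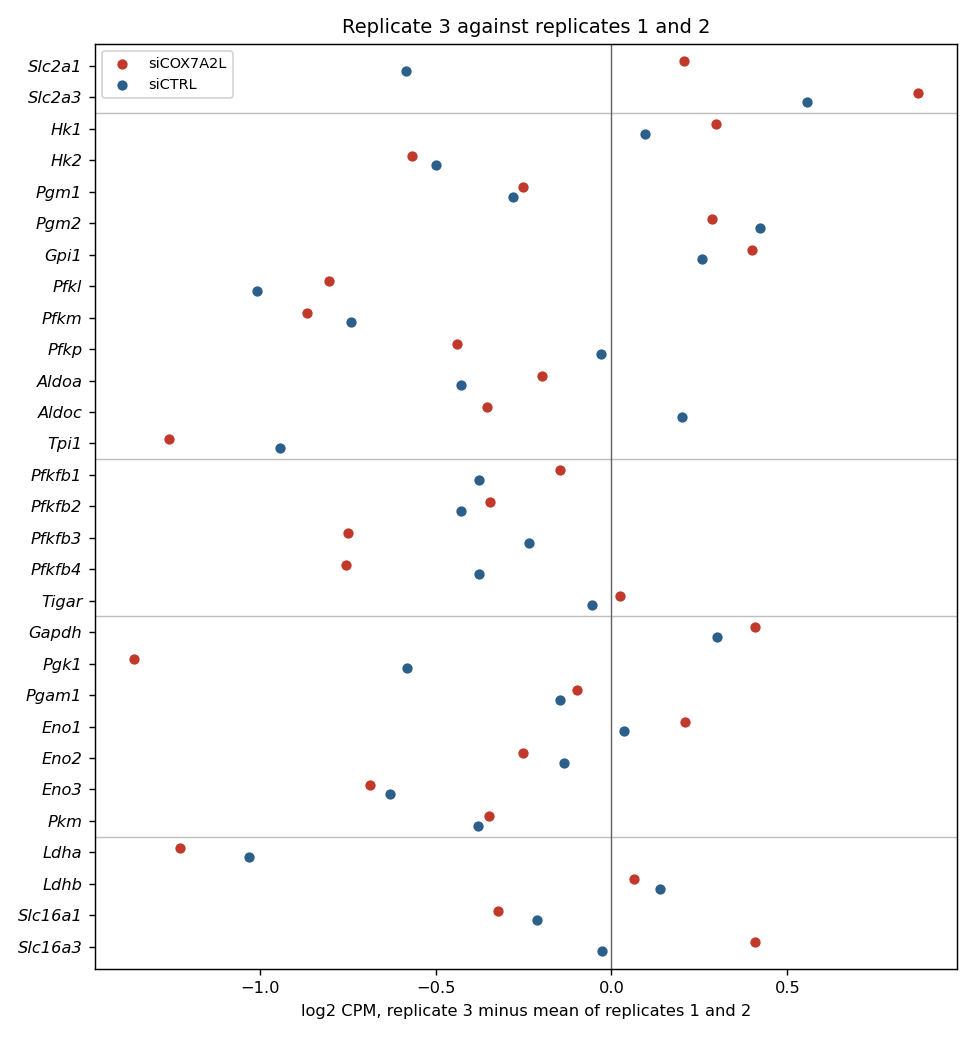
Log2 CPM of replicate 3 minus the mean log2 CPM of replicates 1 and 2 for the 29 tested genes, siCOX7A2L in red above siCTRL in blue. Ldha and Tpi1 lie near -1 in both groups, and Pgk1 lies at -1.36 in siCOX7A2L and -0.58 in siCTRL.

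Several of these genes have copies elsewhere in the genome, and reads from long stretches of them match gene and copy equally. Of the 31-base words of the annotated transcripts, 54.7% in Pgk1, 37.1% in Pgam1, 28.5% in Eno1 and 27.2% in Gapdh also occur in other genes. Genes sharing at least 100 words were taken as copies. Pkm (34.7%) and Ldhb (33.0%) share many words too, but in no library did copies take more than 3.94% of their summed signal. For Pkm nearly all of this was Gm49759 (113.8 of 114.1 CPM on average). Gm49759 overlaps 15.3% of the exon bases of Pkm on the same strand, so it lies at the same locus and not elsewhere. The deposited counts gave such copies 79.3%, 78.8% and 59.1% of the summed Gapdh signal in siCOX7A2L and 78.1%, 79.3% and 58.2% in siCTRL. For Pgk1 the copies took 22.8%, 21.3% and 5.05% in siCOX7A2L and 20.6%, 23.6% and 0.0% in siCTRL, and for Pgam1 28.4%, 30.1% and 2.16% in siCOX7A2L and 28.7%, 27.9% and 0.0% in siCTRL. The share in copies was thus lower in replicate 3 of both groups, and the levels of Gapdh, Pgk1, Pgam1 and Eno1 are uncertain to that extent. Gapdh with its copies had 4476, 4660 and 3106 CPM in siCOX7A2L and 4796, 4902 and 3040 CPM in siCTRL. Eno1 with its copies had 3041, 2921 and 2405 CPM in siCOX7A2L and 3197, 3238 and 2359 CPM in siCTRL. Both sums were lowest in replicate 3 of each group, unlike the own rows of these genes. Pgk1 with its copies had 533, 718 and 198 CPM in siCOX7A2L, against 927, 907 and 477 CPM in siCTRL, a log2 fold change of -0.80 (SE 0.17, edgeR adjusted p 0.0568). With copies summed, Gapdh was at -0.05 and Pgam1 at -0.20, and 0 of the 29 genes passed. Pgam1 with its copies had 659, 666 and 448 CPM in siCOX7A2L and 760, 787 and 501 CPM in siCTRL. Its groups then overlapped, since siCTRL replicate 3 lay below siCOX7A2L replicates 1 and 2. The Eno3 share of enolase was 11.4% ± 1.55 in siCOX7A2L and 12.8% ± 0.654 in siCTRL (SD, n = 3 each) once the copies of Eno1 were added. On that scale the Eno2 share was 0.8004% ± 0.109 in siCOX7A2L and 1.01% ± 0.0767 in siCTRL (SD, n = 3 each), without overlap, with an exact permutation p of 0.1 (adjusted 1.0 over 20 shares), the smallest the test can give.

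**Figure D5:**
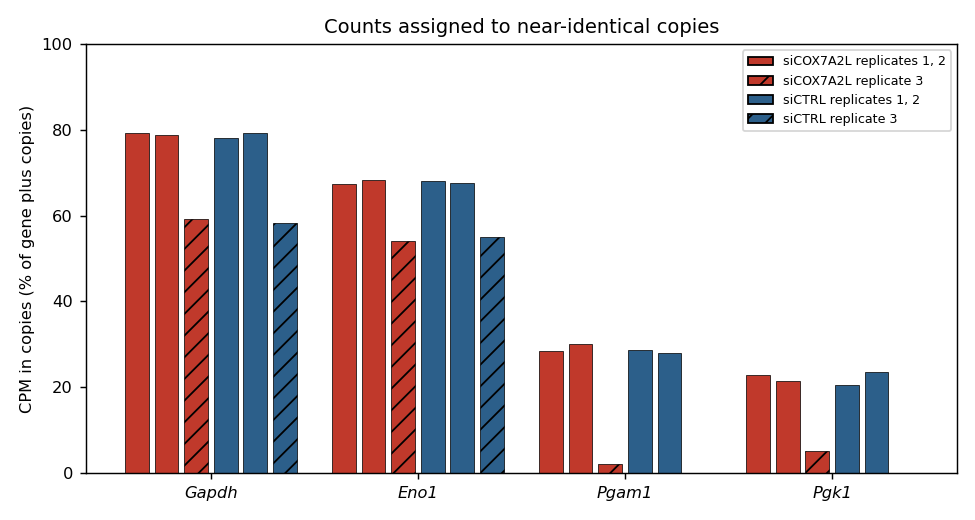
Percent of the summed CPM of a gene and its near-identical copies that the deposited counts assigned to the copies, per library, siCOX7A2L in red left of siCTRL in blue and replicate 3 hatched. Replicate 3 has the lowest share in both groups for all 4 genes, with 0.0% for Pgam1 and Pgk1 in siCTRL.

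Among 5 lists of other genes around the pathway, 2 regulators of glucose use passed the test, set against 0.726% of all genes, and no gene of the 4 other lists did. The lists were chosen with earlier results of these data known, so this comparison is not independent of the values. Of 17 tested regulators, Txnip, an arrestin-related protein that restrains glucose uptake, rose, and Akt1, a kinase of insulin signalling, fell, and the list's median log2 fold change was 0.13. Txnip had 118, 114 and 92.8 CPM in siCOX7A2L, against 45.2, 40.3 and 19.0 CPM in siCTRL, without overlap, a log2 fold change of 1.72 (SE 0.18, edgeR adjusted p 0.0024, a fold of 3.29). Akt1 had 261, 249 and 240 CPM in siCOX7A2L, against 364, 378 and 398 CPM in siCTRL, without overlap, a log2 fold change of -0.60 (SE 0.12, edgeR adjusted p 0.0488, a fold of 0.658). Without the block the edgeR adjusted p was 0.735 for both. Akt1 also lost its call without replicate 3 and with library size alone (edgeR adjusted p 0.0748 and 0.0665) and on log2 TPM with 0.5 or 1 added (limma adjusted p 0.179 and 0.168), while its adjusted p over the other alternatives was as low as 0.000265. The other lists, too short for 0 calls to stand out from that background, held 0 called genes: 0 of 9 tested isoforms and transport partners, 0 of 15 glycogen genes, 0 of 24 genes of pyruvate entry and the NADH shuttles, and 0 of 10 genes of gluconeogenesis and other sugar entry, with median log2 fold changes of 0.04, 0.00, 0.01 and 0.10. The smallest p in each belonged to Adpgk, an ADP-dependent glucokinase (log2 fold change -0.33, edgeR adjusted p 0.238), Gaa, the lysosomal glucosidase that digests glycogen (0.66, 0.0876), Mdh2, the mitochondrial malate dehydrogenase (-0.83, 0.0655), and Gfpt1, which opens the hexosamine pathway (-0.45, 0.151). Adpgk had 47.2, 45.2 and 26.1 CPM in siCOX7A2L and 54.99, 56.4 and 35.5 CPM in siCTRL, with overlap, and Gfpt1 had 64.1, 72.5 and 60.4 CPM in siCOX7A2L, against 83.4, 81.3 and 105 CPM in siCTRL, without overlap. Mdh2 had 167, 283 and 146 CPM in siCOX7A2L, against 334, 336 and 344 CPM in siCTRL, and Gaa had 93.5, 109 and 203 CPM in siCOX7A2L, against 73.9, 80.2 and 89.0 CPM in siCTRL, both without overlap.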

How the data were processed

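Per the labels' protocols, ribosomal RNA was removed and libraries were stranded with dUTP. Tools named in the submitters' processing notes are Salmon 0.13.1, Trim Galore 0.6.4 and DESeq2 1.30.1, with build mm39; how strand entered the counting is not given in the sources used here. Per the file headers and values, the deposited gene table holds estimated counts without scaling to depth, and the deposited TPM are scaled to length and to 1000000 per library. The authors' deposited table holds, per the file headers, log2 fold changes and adjusted p-values. The authors also deposited there a normalised signal per library and a test statistic (a score), neither used here. Between 32.5% and 35.5% of nonzero counts were not whole, so counts were rounded, where the design had foreseen whole counts. TPM of other genes depends on 1 row without a symbol, whose share was 36.9% to 53.6% of TPM (5.81% to 11.1% of counts).

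Symbols were joined by gene identifier without version to GENCODE M21 (97.6% of rows). Counts were tested with edgeR 4.0.16 in R 4.3.3 (TMM, default expression filter, robust glmQLFit and glmQLFTest with replicate number as block, Benjamini-Hochberg over 15022 genes, threshold 0.05), and the script was tested on simulated data. Alternatives used DESeq2 1.42.0, limma 3.58.1 on log2(TPM + 0.5) and log2(TPM + 1), other scalings and filters, no block, and 1 replicate pair left out. Single-pair values used a prior count of 2. Isoform shares were tested by exact permutation. Copies were genes of that annotation sharing at least 100 words of 31 bases with a listed gene, an alternative chosen after seeing the data. Replicate numbers pair the libraries by the data only: deviations from the group means correlated at 0.53, 0.45 and 0.67 for equal numbers, and at 0.43 and 0.44 between replicates 1 and 2, so pairing is clear only for replicate 3. The siCTRL libraries 1 and 2 were the closest, with 14.5% of 5499 genes at p under 0.05 by chi-square, and were kept apart.

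The members, lists and tests were chosen with earlier results of these data known. Values per library are given, in each role group, for the gene with the largest absolute log2 fold change and that with the highest mean TPM, for the muscle isoforms, and for called genes of the other lists or, where none was called, their smallest p; other genes given per library (Eno2, Pgam1, Aldoc) were chosen after their values were seen. Promoter windows belong to GRCm38.p6, another build than that of the counts. Exons of Pgm1 and Gpi1 overlap an antisense gene over 13.6% and 11.5% of their bases.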

Additional observations from a re-analysis of the deposited data

How the results depend on the processing

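The values of the 29 tested genes were compared over 13 alternative settings: 337 kept direction and side of the threshold, 33 reversed and 6 became calls, 5 of them Pgk1 and 1 Slc2a1. Without the replicate block 2 genes were called instead of 109, 0 of the 29 and 0 genes of the other lists, and Pfkl turned to -0.0010. The number called was 197 with a term for replicate 3, 58 with library size alone, 1257 without a filter, 208 with at least 10 counts in every library, 490 with DESeq2, 14 on log2(TPM + 0.5) and 11 on log2(TPM + 1). Of the 29, 1 gene (Pgk1) was called without a filter, with at least 10 counts and with DESeq2. Of the genes of the other lists, 2 were called in the main test, 7 with DESeq2, 11 without a filter, 1 with library size alone and 1 on either TPM scale. Leaving out 1 replicate pair gave 51 to 1210 calls, 0 to 2 among the 29, and 1 to 10 in the other lists, with the fewest without replicate 3. The median of the 29 was -0.14 with library size alone, -0.27 on both TPM scales, and -0.12 to -0.053 with a pair left out. By role, glucose transport was 0.27 with at least 10 counts, where Slc2a1 alone remained, and the lower enzymes -0.27 with library size alone. On log2(TPM + 0.5) and log2(TPM + 1) the upper enzymes were at -0.27 and -0.26, the control enzymes -0.23 and -0.21 (0.027 to 0.087 with a pair left out), the lower enzymes -0.49 on both and lactate -0.45 and -0.44, while the median over all genes was -0.21 and -0.18. The difference in isoform share moved for Pfkfb2 to 2.65 percentage points with CPM in place of TPM, and for Pfkm it ran from -2.25 to 0.736 with a pair left out. Reversed with library size alone were Hk1 (-0.0017) and Pfkl (-0.029). Reversed on log2(TPM + 0.5) and log2(TPM + 1) were Slc2a1 (-0.016, -0.015), Slc2a3 (0.24, 0.16), Hk1 (-0.22 on both), Gpi1 (-0.074 on both), Pfkl (-0.27 on both), Aldoa (-0.20 on both), Aldoc (-0.050, -0.037), Pfkfb2 (-0.23, -0.21), Tigar (-0.12, -0.10) and Ldhb (-0.099, -0.090). With a pair left out, Pgm2, Pfkl and Slc16a1 reversed without replicate 2, and Hk1, Pgm2, Pfkl, Pfkp, Aldoa, Pfkfb3 and Pfkfb4 without replicate 3; over the 3 pairs left out, Hk1 ran from -0.026 to 0.10, Pgm2 from -0.11 to 0.030, Pfkl from -0.053 to 0.12, Pfkp from -0.18 to 0.041, Aldoa from -0.013 to 0.11, Pfkfb3 from -0.32 to 0.054, Pfkfb4 from -0.30 to 0.0085 and Slc16a1 from -0.14 to 0.016. The cause of these shifts was not tested. With the block, leaving out 1 library leaves out its pair, and the low depth of siCOX7A2L replicate 3 limits the precision of low genes.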

Other observations

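Several genes next to the pathway did not pass the edgeR test but had adjusted p-values under 0.05 in the authors' deposited table, and they were chosen for naming after their values were seen. The glycerol phosphate shuttle passes electrons from cytosolic NADH to the respiratory chain. Its mitochondrial enzyme Gpd2 had 117, 126 and 74.6 CPM in siCOX7A2L, against 154, 157 and 144 CPM in siCTRL, a log2 fold change of -0.55 (SE 0.14, edgeR adjusted p 0.0937). Gpd1l, which resembles the cytosolic enzyme, had 24.6, 31.1 and 20.4 CPM in siCOX7A2L, against 40.8, 39.8 and 43.1 CPM in siCTRL, a log2 fold change of -0.71 (SE 0.16, edgeR adjusted p 0.0675). Neither Gpd2 nor Gpd1l overlapped between the groups, and the authors' deposited table gives them adjusted p-values of 0.00800 and 0.00451. Gpd1, the cytosolic enzyme itself, went the other way at low counts. It had 1.14, 1.19 and 1.01 CPM in siCOX7A2L, against 0.726, 0.688 and 0.754 CPM in siCTRL, without overlap. Its log2 fold change was 0.62 (SE 0.44, edgeR adjusted p 0.494).

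Pdk2, a kinase that inhibits pyruvate dehydrogenase, had 9.06, 12.1 and 15.7 CPM in siCOX7A2L, against 6.54, 6.26 and 6.78 CPM in siCTRL (log2 fold change 0.88, SE 0.21, edgeR adjusted p 0.0736). The related kinases did not rise. Pdk1, at a higher level, averaged 45.0 CPM in siCOX7A2L and 55.6 CPM in siCTRL (log2 fold change -0.31, edgeR adjusted p 0.250). Pdk3 and Pdk4 had log2 fold changes of -0.06 and -0.05 (edgeR adjusted p 0.856 and 0.936). Prkaa1, a catalytic subunit of the energy sensor AMPK, had 89.6, 83.1 and 66.5 CPM in siCOX7A2L, against 59.1, 53.7 and 55.4 CPM in siCTRL (log2 fold change 0.50, SE 0.13, edgeR adjusted p 0.0990). Tbc1d4, which holds Slc2a4 vesicles inside the cell until insulin acts, had 25.7, 31.7 and 15.4 CPM in siCOX7A2L, against 18.4, 18.9 and 7.77 CPM in siCTRL, with overlapping groups (log2 fold change 0.73, SE 0.16, edgeR adjusted p 0.0660). The authors' deposited table gives Pdk2, Prkaa1 and Tbc1d4 adjusted p-values of 0.0140, 0.0132 and 0.00655. Hif1a and Myc had log2 fold changes of -0.26 and -0.22 (edgeR adjusted p 0.337 and 0.404), and Myc was higher in replicate 3 of both groups, at 82.5 CPM in siCOX7A2L and 93.7 CPM in siCTRL.

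The second row with the symbol Aldoa, a separate gene model, had 1.96, 1.76 and 0.561 CPM in siCOX7A2L, against 2.97, 2.82 and 2.96 CPM in siCTRL, without overlap (log2 fold change -1.04, SE 0.38, edgeR adjusted p 0.192).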
